A study of Mus musculus with 119 samples.

Results

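The levels of 8 genes of the GABA-A receptor family were followed across 5 brain regions of female and male mice: Gabra2, Gabra3, Gabra4 and Gabra5, which encode alpha subunits, Gabrb1 and Gabrb2, which encode beta subunits, Gabrg1, which encodes a gamma subunit, and Gabrd, which encodes the delta subunit. They were taken by name, as 8 of the 19 GABA-A subunit genes and of the 55291 genes listed in the count files. C57BL/6 mice received THC at 10 mg/kg or vehicle by daily intraperitoneal injection from postnatal day (PND) 28 to 48, and behavior was tested from PND 63 before the brains were taken. Messenger RNA was sequenced from the prefrontal cortex (PFC), the dorsal medial striatum (DMS, which the labels call dorsolateral striatum), the nucleus accumbens (NAc), the amygdala (Amy) and the ventral tegmental area (VTA). For each region, sex and treatment there were 6 libraries, or 5 for the VTA of vehicle-treated males, which made 119 libraries in 20 groups, each from 1 region of 1 mouse. No group carried a transgene or deletion. The labels name the strain C57BL/6J and an age of 11 weeks, whereas the study's methods name C57BL/6NCrl.

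GABA-A receptors are chloride channels made of 5 subunits around a pore, and they carry most fast inhibition in the brain. The alpha and gamma subunits set where the receptor sits and which drugs bind to it. Receptors with a gamma subunit gather mostly at synapses, whereas receptors that pair alpha4 with delta lie outside synapses and carry the tonic current that low ambient GABA evokes. Alpha5 is also largely extrasynaptic and is best known from the hippocampus, alpha2 and alpha3 are found at synapses of forebrain and brainstem neurons, and gamma1 is a less common gamma subunit known from the amygdala and striatum. In striatal medium spiny neurons, receptors with alpha4 and delta are an established source of tonic inhibition.

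A group of 4 of the genes lies on chromosome 5 (GRCm38, GENCODE M21). They are Gabrg1 at chr5:70751047-70842617, Gabra2 at chr5:70957597-71095849 and Gabra4 at chr5:71569749-71658308, all on the minus strand, and Gabrb1 at chr5:71658113-72149037 on the plus strand. Gabra4 and Gabrb1 start from opposite strands and overlap by 196 bases, where reads can be told apart only by strand. Gabra3 lies on the X chromosome (chrX:72432681-72656848, minus strand), Gabra5 on chromosome 7 (chr7:57407672-57510059, minus strand), Gabrb2 on chromosome 11 (chr11:42419757-42629028, plus strand) and Gabrd on chromosome 4 (chr4:155384980-155398112, minus strand). The gene body of Gabra5 overlaps a gene on the other strand over 90368 bases, and the strand setting of the counting is not given in the sources used here.

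The RefSeq windows around the starts of the chromosome 5 genes (GRCm38.p6, 250 bases before to 50 after the start, 5′ to 3′ on the strand of the gene) are shown because these neighbours had different orders over the regions. Capitals mark CG dinucleotides. A window was given for 7 of the 8 genes, and for Gabrb1 the first of its windows is printed.
Gabrg1, chr5:70842568-70842867, minus strand: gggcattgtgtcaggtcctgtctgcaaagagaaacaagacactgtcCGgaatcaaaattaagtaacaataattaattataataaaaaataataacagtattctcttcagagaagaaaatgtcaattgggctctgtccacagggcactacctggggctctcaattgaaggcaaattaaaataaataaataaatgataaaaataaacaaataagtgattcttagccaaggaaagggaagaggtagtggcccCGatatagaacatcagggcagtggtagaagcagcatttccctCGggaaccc
Gabra2, chr5:71095800-71096099, minus strand: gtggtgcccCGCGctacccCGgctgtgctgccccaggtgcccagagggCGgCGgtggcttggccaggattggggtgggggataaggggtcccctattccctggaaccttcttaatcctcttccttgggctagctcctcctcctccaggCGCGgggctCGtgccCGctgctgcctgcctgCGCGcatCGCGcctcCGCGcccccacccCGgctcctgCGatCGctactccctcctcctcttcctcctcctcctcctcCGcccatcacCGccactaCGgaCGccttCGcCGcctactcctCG
Gabra4, chr5:71658259-71658558, minus strand: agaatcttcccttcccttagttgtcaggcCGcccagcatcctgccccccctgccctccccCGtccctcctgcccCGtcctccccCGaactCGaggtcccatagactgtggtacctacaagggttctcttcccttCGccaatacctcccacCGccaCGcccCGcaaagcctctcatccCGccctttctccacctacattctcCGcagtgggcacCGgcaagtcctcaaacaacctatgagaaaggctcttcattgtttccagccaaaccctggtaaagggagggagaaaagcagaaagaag
Gabrb1, chr5:71657671-71657970, plus strand: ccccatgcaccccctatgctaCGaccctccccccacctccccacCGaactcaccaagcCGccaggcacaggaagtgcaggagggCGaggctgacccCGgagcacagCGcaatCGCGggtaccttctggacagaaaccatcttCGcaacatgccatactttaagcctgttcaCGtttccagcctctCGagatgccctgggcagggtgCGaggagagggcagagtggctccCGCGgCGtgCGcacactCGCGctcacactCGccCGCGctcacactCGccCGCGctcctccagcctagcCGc
The window of Gabrg1 held 3 CG dinucleotides, that of Gabra4 held 12, and those of Gabra2 and Gabrb1 held 25 each in the windows shown, with 9 in a second window of Gabrb1, against a median of 7 over 32851 windows of the same length. Of all windows, 31.4% held as few as Gabrg1 or fewer, 62.1% as few as Gabra4 or fewer and 83.1% as few as Gabra2 or fewer. Both windows of Gabra3 held 0, which was so for 5.43% of all windows. The windows are a description of sequence, and no methylation or binding was measured here.

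Levels are given as CPM, the count of a gene scaled to a common library size, after TMM normalization over all libraries. The total expected count of a library ranged from 3090998 to 77042133, with the lowest in the VTA of a vehicle-treated male (FTL_371). In 2 Amy libraries, Xist and Y-linked transcripts went against the labelled sex. They were FTL_344, labelled as a THC-treated female, and FTL_356, labelled as a THC-treated male. Both were kept in their labelled groups, and values without them are given for some of the Amy results only. In all, 59 of 60 libraries labelled female and 58 of 59 labelled male matched their label. The summed CPM of 8 medium spiny neuron markers averaged 8180 in the DMS and 3767 in the NAc against 972 for Amy libraries and 220 for PFC libraries, that of 6 cortical and basolateral projection neuron markers was highest in the PFC (5276), and that of 7 dopaminergic markers averaged 2972 in the VTA and at most 51.2 elsewhere. In tissue punches, fewer cells of a type and less RNA per cell cannot be told apart. The lowest count of a member in any library outside the VTA was 130 (Gabrd). In 10 libraries, all from the VTA, Gabrd had fewer than 10 counts, the lowest being 3.

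The 8 genes, like many others, differed between regions. Of 80 pairs of gene and region contrast, 60 (75.0%) were called at an adjusted p under 0.05 with a log2 fold change of 0.4 or more in either direction, where 45.9% of the pairs over all genes were called, and the median absolute log2 fold change was 0.87 with a median standard error (SE) of 0.05. The same median over 79 pairs of gene and THC comparison was 0.06 with a median SE of 0.08. Of these pairs 0 were called, where only 0.167% of the pairs over all genes were called. The plot of levels by region shows the separation of the regions beside the overlap of vehicle and THC.

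**Figure D1:**
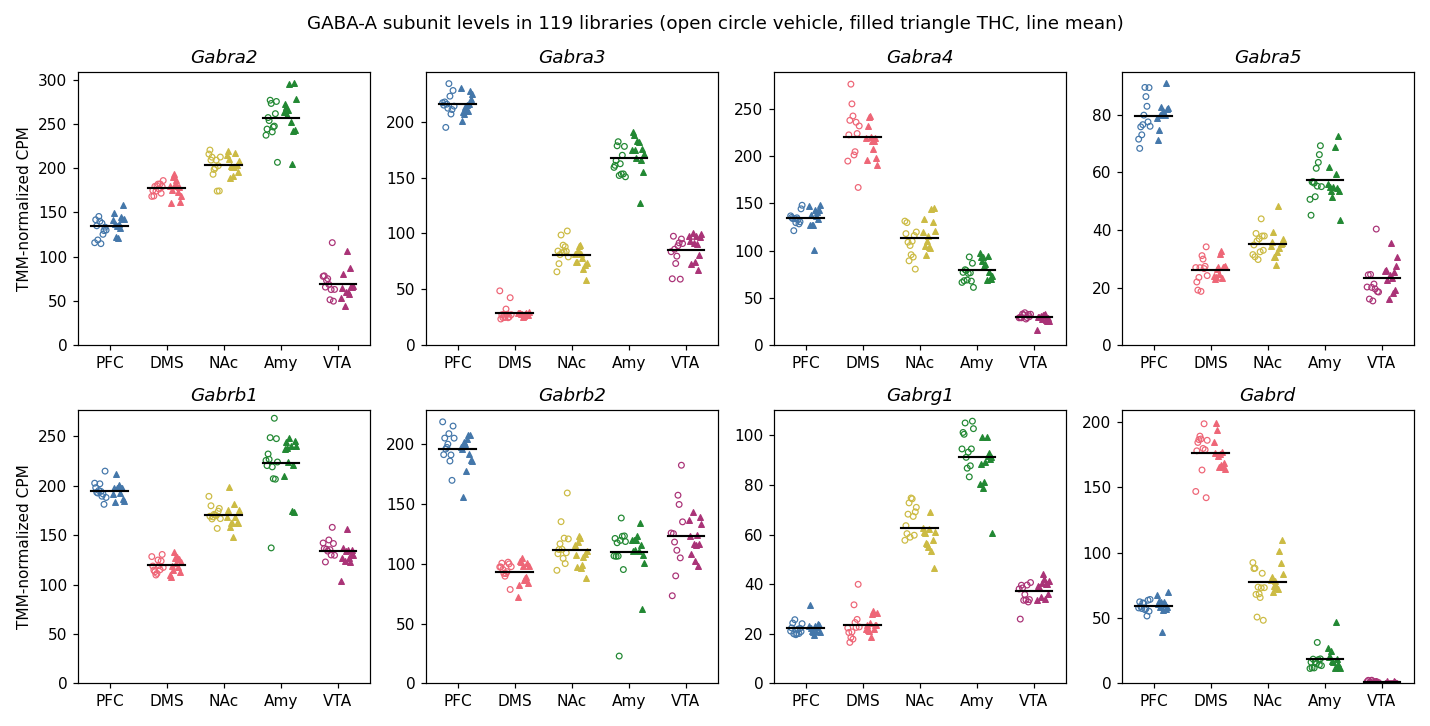
Level of each of the 8 subunit genes (y axis, TMM-normalized CPM, from 0) in each of 119 libraries, by region (x axis). Open circles are vehicle libraries, filled triangles THC libraries, and lines the mean over both sexes and treatments. Gabrd runs from a mean of 176 in the DMS to 0.881 in the VTA, whereas the ranges of vehicle and THC libraries overlap in each region.

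Gabrd had the widest range of levels. It was highest in the DMS at 176 ± 14.3 CPM (SD, n = 24, lowest 142, highest 199), followed by the NAc at 77.6 ± 13.9 (48.3 to 109.8), the PFC at 59.2 ± 5.82 (39.3 to 69.6), the Amy at 18.3 ± 7.89 (11.4 to 46.7) and the VTA at 0.881 ± 0.651 (n = 23, 0.160 to 2.42). The libraries of the DMS stood above all others, and those of the VTA below all others, while the ranges of NAc and PFC and of PFC and Amy overlapped. The mean of the DMS was 200-fold that of the VTA. Gabra4, whose product pairs with delta, had nearly the same order. Its level was 221 ± 23.7 CPM in the DMS (167 to 276.1), 134 ± 10.2 in the PFC (101 to 148), 113 ± 16.8 in the NAc (80.5 to 145), 79.0 ± 10.5 in the Amy (61.1 to 97.5) and 29.3 ± 3.78 in the VTA (15.96 to 34.3). DMS and VTA were again separate from the rest, and the 3 regions between them overlapped with their neighbours.

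Gabra3, a synaptic alpha subunit, went the other way in the striatum. It was highest in the PFC at 215 ± 9.24 CPM (195 to 234) and then 168 ± 14.6 in the Amy (127 to 191), 85.6 ± 12.6 in the VTA (59.1 to 101), 80.7 ± 9.99 in the NAc (58.1 to 102) and 28.8 ± 5.59 in the DMS (23.4 to 48.6). PFC, Amy and DMS did not overlap with a neighbour, and the difference between NAc and VTA missed the threshold (log2 fold change −0.09 ± 0.05, adjusted p = 0.0889). Gabra5 fell from 79.6 ± 5.82 CPM in the PFC (68.3 to 91.1) over 57.2 ± 7.19 in the Amy, 35.2 ± 4.57 in the NAc and 26.2 ± 3.89 in the DMS to 23.2 ± 6.15 in the VTA (15.3 to 40.3), and each region overlapped with the next.

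Gabra2 rose from 69.3 ± 16.7 CPM in the VTA (44.7 to 116) over 135 ± 10.9 in the PFC, 177 ± 8.26 in the DMS and 203 ± 12.5 in the NAc to 257 ± 22.5 in the Amy (204 to 296.2). The libraries of PFC and DMS were separate, and the other neighbours overlapped. Its neighbour Gabrg1 was also highest in the Amy, at 91.2 ± 10.0 CPM (60.5 to 105.7), and second in the NAc at 62.5 ± 7.12 (46.5 to 74.7). It stood at 37.2 ± 4.06 in the VTA, 23.7 ± 5.02 in the DMS and 22.3 ± 2.54 in the PFC. The difference between the last 2 missed the threshold (log2 fold change of PFC against DMS −0.08 ± 0.06, adjusted p = 0.165).

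The beta subunit genes varied least. Gabrb1 had its highest mean in the Amy at 223 ± 28.7 CPM (137 to 268.3) and its lowest in the DMS at 119 ± 7.10 (107.6 to 133), a ratio of 1.87. Between them came the PFC at 195 ± 8.02, the NAc at 170.1 ± 10.7 and the VTA at 134 ± 11.3. Gabrb2 was highest in the PFC at 196 ± 14.1 CPM (156 to 219) and stood at 123 ± 23.4 in the VTA, 112 ± 14.8 in the NAc, 109.9 ± 23.6 in the Amy, and was lowest at 93.5 ± 8.28 in the DMS, with overlap at each step. The difference between NAc and Amy missed the threshold (log2 fold change 0.025 ± 0.07, adjusted p = 0.78). One Amy library, FTL_338 of a vehicle-treated female, held 22.9 CPM of Gabrb2, and without it the log2 fold change of NAc against Amy was −0.026 ± 0.05 (adjusted p = 0.694).

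In edgeR's quasi-likelihood test over all 119 libraries, with sex and treatment as covariates, the direction of the members differed by pair of regions. Here and in the next paragraph, higher, lower and exceeded mean called by both the p and the size above. Against the DMS, the PFC was higher in 4 genes (Gabra3, Gabra5, Gabrb1, Gabrb2), where 23.8% of 18932 genes were higher, and lower in Gabra4 and Gabrd, where 27.1% were lower. Against the NAc, the PFC was higher in 3 (Gabra3, Gabra5, Gabrb2; 20.8% of all genes) and lower in Gabra2 and Gabrg1 (26.3%). Against the Amy, it was higher in 4 (Gabra4, Gabra5, Gabrb2, Gabrd; 15.6%) and lower in Gabra2 and Gabrg1 (22.2%), with Gabrg1 at a log2 fold change of −2.03. Against the VTA, it was higher in 7 genes (25.3%) and lower in Gabrg1 alone (31.2%).

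The striatal contrasts split along the alpha4 and delta pair. The DMS exceeded the NAc in Gabra4 (0.96 ± 0.05) and Gabrd (1.19 ± 0.09), where 14.7% of all genes were higher, and was lower in 4 genes (Gabra3, Gabra5, Gabrb1, Gabrg1), where 18.7% were lower. It exceeded the Amy in the same pair, with 20.3% of all genes higher, and was lower in 5 genes, with 24.7% lower. It exceeded the VTA in Gabra2, Gabra4 and Gabrd, with 26.5% of all genes higher, and was lower in Gabra3 and Gabrg1, with 32.4% lower. The NAc exceeded the Amy in Gabra4 and Gabrd (12.1% of all genes) and was lower in Gabra3, Gabra5 and Gabrg1 (15.5%). It exceeded the VTA in 5 genes (25.5%) and was called lower in 0 (29.2%). The Amy exceeded the VTA in 7 genes, all but Gabrb2 (23.1%), and was called lower in 0 (23.3%). Gabrb2 had a lower estimate in the Amy at an adjusted p under 0.05, but its log2 fold change of −0.166 was under the size of a call. By the study's methods the 5 regions were punched from the brains of 24 mice, so libraries of different regions share mice, which these p-values do not take into account. PFC and DMS were deposited in one table and the other regions in another, so a contrast between tables includes any difference between them.

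Per length, the make-up of the 4 alpha genes changed from region to region. Levels were divided by the exon length of each gene, in CPM per kb, and are shares of the sum over these 4 genes only. In the DMS, Gabra4 made up 53.0% ± 3.50 (SD, n = 24) and Gabra3 7.55% ± 1.66. In the PFC, Gabra3 made up 40.5% ± 0.991 and Gabra2 16.7% ± 1.14. The NAc lay between the DMS and the other regions in Gabra4, at 28.6% ± 3.45, with Gabra2 as its largest part at 36.7% ± 1.23. In the Amy, Gabra2 and Gabra3 made up 35.0% ± 1.74 and 34.6% ± 1.58, and their order turned when the longest transcript was used as the length (33.7% and 35.1%). In the VTA, Gabra3 made up 45.6% ± 7.06 (n = 23). Gabra5 ranged from 8.91% in the DMS to 19.5% in the PFC.

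**Figure D2:**
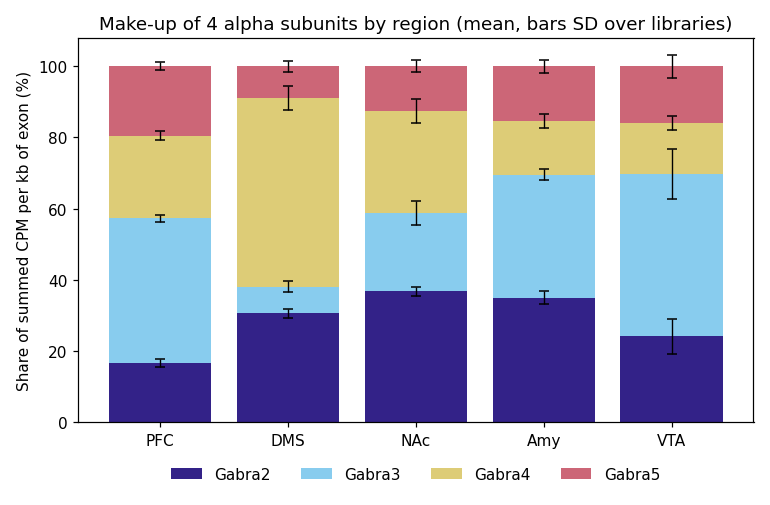
Share of Gabra2, Gabra3, Gabra4 and Gabra5 in their summed CPM per kb of exon (y axis, percent) in each region (x axis), as the mean over libraries. The bar at the top of each segment is the SD of the share of that gene over 24 libraries (23 in the VTA). Gabra4 fills 53.0% in the DMS and 14.4% in the VTA.

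Among all 8 genes on the per-length scale, Gabrd was the highest in the DMS (91.7 CPM per kb) and in the NAc (40.4), Gabra3 in the PFC (55.8), Gabra2 in the Amy (43.9) and Gabrb2 in the VTA (30.0). The same held with the longest transcript, except in the Amy, where Gabra3 came first. Gabrb1, with the longest exons of the 8 genes (13737 bases), was second by CPM in the Amy but seventh per length. The per-length order assumes that all annotated exons are used, and the transcripts in use were not measured.

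Gabra4 and Gabrd also moved together from library to library. Over the 20 group means of log2 CPM they had the highest correlation of the 28 pairs of members (Pearson r = 0.98). Within a region, after the mean of each group was taken off, r was 0.86 in the NAc, 0.81 in both PFC and Amy and 0.80 in the DMS (24 libraries each), and 0.20 in the VTA (23 libraries), where the highest Gabrd value was 2.42 CPM. The points share library and depth, and these values are descriptions. Both followed the medium spiny neuron markers within the DMS (r = 0.87 for Gabra4 and 0.93 for Gabrd), the NAc (0.87 and 0.91) and the Amy (0.72 and 0.93), but had r = −0.51 and −0.44 with them in the PFC. Other lists reached like values. Gabra4 had r = 0.85 with the microglia markers and −0.84 with the thalamus markers in the DMS, and −0.82 with those of hypothalamus and medial amygdala in the Amy, where Gabrd had −0.85. Gabra3 ran against the medium spiny neuron markers in the DMS (r = −0.84), the NAc (−0.71) and the Amy (−0.62). With the thalamus markers it had r = 0.88 in the DMS. In the VTA the closest pair was Gabra3 with Gabrb2 (r = 0.89), and both ran against the cortical and basolateral markers (−0.82 and −0.73).

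**Figure D3:**
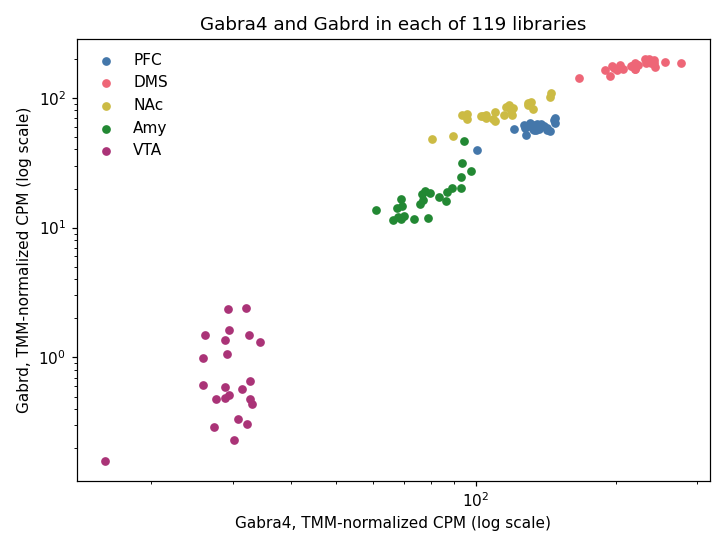
Gabrd (y axis) against Gabra4 (x axis), both as TMM-normalized CPM on log scales, 1 point for each of 119 libraries, colored by region. DMS libraries lie at the top right, VTA libraries at the bottom left, and within the DMS, NAc, Amy and PFC the points slope upward (r from 0.80 to 0.86 after removal of group means).

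By the profile over the 20 group means, the genes most like each member among 15483 genes were Tiam2, Nin and Asb11 for Gabrd (r = 0.998, 0.994 and 0.994) and Sec14l1, Ano3 and Trpc1 for Gabra4 (0.997, 0.996 and 0.996). For Gabra3, Sidt1 and Sobp were among the 3 closest (0.995 and 0.991). For Gabra2, Gria1, which encodes an AMPA receptor subunit, came first (0.991), ahead of Krt77 and Trit1 (0.982 and 0.98). Elfn2, Cmtm4 and Tmed8 were closest to Gabrb1 (0.993, 0.993 and 0.992), Ankfn1, Pnck and Usp27x to Gabrg1 (0.988, 0.984 and 0.982), and Dyrk3, Stxbp5 and Gpd1l to Gabra5 (0.982, 0.978 and 0.977). The profile of Gabrb2 had the lowest match, with Cacna1a, a calcium channel gene, first at 0.975 and Myo5a among the 3 closest at 0.959. Such a profile mainly reflects 5 regions, so many genes reach a high r.

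THC against vehicle was tested within each region and sex by edgeR's quasi-likelihood test. The question was whether treatment in adolescence left a difference in mRNA by the time the brains were taken. Of the 8 members 0 were called in any of the 10 comparisons, and 12 of the 79 tested pairs (15.2%) had an unadjusted p under 0.05, against 8.15% of the pairs over all genes. Over all genes, 1.57% were called in the Amy of females and 0.0127% in the DMS of females. In the Amy of males, the DMS of males, and the PFC, NAc and VTA of both sexes, 0% were called. DESeq2 called 1 member in 1 comparison, Gabrd in the Amy of females. Gabrd was left out of the female VTA by the filter on low counts. The log2 fold changes ran from −0.29 (Gabra3, male NAc) to 0.54 (Gabrd, female Amy), and 5 of the 12 pairs were in the male NAc and 3 in the female Amy, where 16.7% and 21.9% of all genes had an unadjusted p under 0.05.

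In the Amy of females, Gabra4 was higher after THC. The vehicle libraries held 66.4 to 79.8 CPM with a median of 73.0, and the THC libraries 83.3 to 97.5 with a median of 90.9. All 6 THC libraries lay above all 6 vehicle libraries. The log2 fold change was 0.30 ± 0.06 (SE) with an adjusted p of 0.0256, which passed the threshold of the p but not that of size, and 2.72% of all genes had an adjusted p under 0.05. With each of the 12 libraries left out in turn the adjusted p ran from 0.0111 to 0.0758 and was 0.05 or more in 5 of the 12 (without FTL_333, FTL_335, FTL_339, FTL_340 or FTL_342), and without FTL_344 the log2 fold change was 0.31 with an adjusted p of 0.0449. With the total count of the library as a covariate the adjusted p was 0.0672, and it was 0.0812 where 1 model held both sexes of this region.

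Gabrd was measured at 11.4 to 18.6 CPM in the female Amy after vehicle (median 14.1) and at 16.1 to 27.1 after THC (median 20.2), and 4 of 6 THC libraries lay above all vehicle libraries. Its log2 fold change was 0.54 ± 0.15 with an adjusted p of 0.075, and 0.60 with an adjusted p of 0.0664 without FTL_344. DESeq2 gave 0.54 with an adjusted p of 0.0145, the other 4 alternative settings gave adjusted p-values from 0.0743 to 0.276, and those with each library left out ran from 0.0608 to 0.175. Gabrg1 was measured at 86.8 to 105 CPM after vehicle (median 97.5) and 78.6 to 99.5 after THC (median 84.7). The groups overlapped, with a log2 fold change of −0.17 ± 0.07 (unadjusted p = 0.0215, adjusted p = 0.156).

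Cell type markers moved with the female Amy groups. The summed CPM of the 6 cortical and basolateral projection neuron markers was 1479 to 2391 after vehicle and 2502 to 3291 after THC, without overlap, and 5 of the 6 genes were called higher. The 8 medium spiny neuron markers summed to 475 to 1039 after vehicle and 792 to 1332 after THC. Of them 7 had higher estimates, and 7 were at an unadjusted p under 0.05, and 0 at an adjusted p under 0.05. The 6 markers of hypothalamus and medial amygdala summed to 69.0 to 127 after vehicle and 55.4 to 69.2 after THC, and 2 were called lower. None of these 3 lists had a marker under 0.1 CPM on average. The median total count was 26933796 after vehicle and 44472650 after THC. Among the other lists, all 7 oligodendrocyte markers had lower estimates (median log2 fold change −0.47, 2 at an unadjusted p under 0.05), as had 6 of 8 astrocyte markers (4 at an unadjusted p under 0.05). An interneuron marker was called lower, and of the dopaminergic markers 1 was called higher and 1 lower. Gabrg1 had r = 0.47 with the oligodendrocyte markers within the Amy (24 libraries). The part of these markers or of depth in the differences of the 3 members was not tested.

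In the Amy of males, the vehicle libraries held 61.1 to 93.3 CPM of Gabra4 and the THC libraries 69.2 to 94.3, and the ranges overlapped. Gabrd was measured at 13.6 to 31.3 after vehicle and 11.6 to 46.7 after THC, and the highest value was that of FTL_352. The difference between the sexes in the THC response of Gabra4 was −0.32 ± 0.12 on the log2 scale, male minus female (unadjusted p = 0.0154, adjusted p = 0.26), and −0.32 with an adjusted p of 0.233 without FTL_344 and FTL_356. Over both sexes, Gabrg1 had a log2 fold change of −0.14 ± 0.06 in the Amy (unadjusted p = 0.0322, adjusted p = 0.682), and −0.10 without the same 2 libraries.

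In the NAc of males, 5 members had an unadjusted p under 0.05 and adjusted p-values of 0.21 to 0.269. By DESeq2 Gabra3 had an adjusted p of 0.0361, and over its 5 alternative settings the adjusted p ran to 0.347. Gabra3 was measured at 79.0 to 102 CPM after vehicle (median 86.1) and 58.1 to 81.7 after THC (median 72.7), and 5 of 6 THC libraries lay below all vehicle libraries (log2 fold change −0.29 ± 0.08). Gabrg1 was measured at 59.7 to 74.7 after vehicle and 46.5 to 69.2 after THC (−0.26 ± 0.08), and 3 THC libraries lay below all vehicle libraries. Gabrb2 was measured at 100.3 to 159 after vehicle and 88.3 to 111 after THC (−0.24 ± 0.10). These 3 genes had lower estimates after THC, whereas the alpha4 and delta genes had higher ones.

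Gabra4 was measured at 80.5 to 120 CPM in the male NAc after vehicle (median 103) and at 103 to 145 after THC (median 125), a log2 fold change of 0.28 ± 0.11. Gabrd was measured at 48.3 to 84.2 after vehicle (median 70.8) and 71.8 to 109.8 after THC (median 87.7), a log2 fold change of 0.36 ± 0.13. The groups overlapped in both genes. The 8 medium spiny neuron markers summed to 2531 to 3868 CPM after vehicle and 3453 to 5255 after THC. All 8 had higher estimates after THC, 7 of them at an unadjusted p under 0.05 and 0 at an adjusted p under 0.05, and no marker of the list was under 0.1 CPM on average. The 6 thalamus markers had lower estimates, and summed to 102 to 148 after vehicle and 61.7 to 107.8 after THC. Of the 6 cortical and basolateral markers 3 were tested, with 1 higher and 2 lower estimates (median log2 fold change −1.74). Of the 6 markers of hypothalamus and medial amygdala 4 were tested, with 2 higher and 2 lower estimates. All tested markers of these 2 lists had an unadjusted p under 0.05. Of the 8 astrocyte markers 7 had lower estimates, 3 of them at that p. None of these markers was at an adjusted p under 0.05. The part of any list in the differences of the 5 members was not tested.

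**Figure D4:**
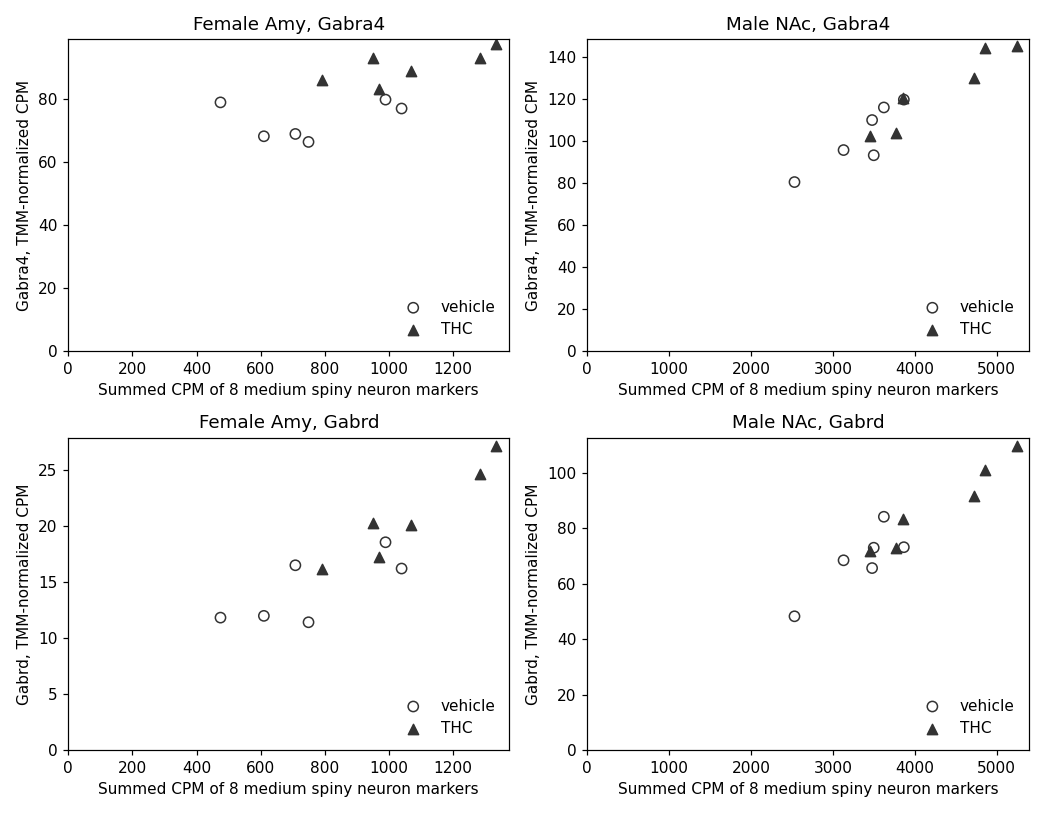
Gabra4 (top) and Gabrd (bottom) as TMM-normalized CPM (y axis) against the summed CPM of 8 medium spiny neuron markers (x axis) in the female Amy (left) and the male NAc (right), 1 point for each library, open circles vehicle and filled triangles THC, both axes from 0. THC libraries reach 1332 on the x axis in the female Amy and 5255 in the male NAc and vehicle libraries reach 1039 and 3868.

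In the NAc of females, none of Gabra3, Gabra4 and Gabrd had an unadjusted p under 0.05. Gabra3 was measured at 65.7 to 98.6 CPM after vehicle and 74.3 to 89.9 after THC, Gabra4 at 89.2 to 131 and 95.6 to 133, and Gabrd at 50.7 to 92.4 and 69.9 to 81.7. The vehicle and THC libraries overlapped in all of them. The difference between the sexes in the THC response of Gabra3 was −0.31 ± 0.12, male minus female (unadjusted p = 0.0183, adjusted p = 0.398). Gabrg1 had a log2 fold change of −0.12 ± 0.06 in females (unadjusted p = 0.0489, adjusted p = 0.991), with 57.7 to 72.8 CPM after vehicle and 55.0 to 62.5 after THC. Over both sexes of the NAc it was −0.19 ± 0.05, with an unadjusted p of 0.00161 and an adjusted p of 0.33.

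Outside the Amy and NAc, 3 pairs had an unadjusted p under 0.05. Gabra2 in the PFC of males was measured at 115 to 138 CPM after vehicle (median 129.7) and 132 to 158 after THC (median 143), and 4 of 6 THC libraries lay above all vehicle libraries (log2 fold change 0.16 ± 0.04, unadjusted p = 0.00204, adjusted p = 1). Gabrg1 in the DMS of females was measured at 16.5 to 22.4 after vehicle and 18.7 to 24.2 after THC (0.17 ± 0.08, adjusted p = 0.543). Gabrb2 in the VTA of males was measured at 158, 149.8, 105, 183 and 135 CPM in the 5 vehicle libraries and 98.1 to 139.7 after THC (−0.28 ± 0.12, adjusted p = 0.819).

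In the VTA of females Gabrb2 had means of 107 CPM after vehicle and 122 after THC (unadjusted p = 0.2), and the difference between the sexes was −0.46 ± 0.19 (unadjusted p = 0.0213, adjusted p = 0.78). When each of the 5 male vehicle libraries was left out in turn, it ran from −0.54 to −0.37. The 7 dopaminergic markers summed to 1435 to 4073 CPM in the male vehicle libraries and 2148 to 3781 in the male THC libraries. The lowest vehicle value was that of FTL_371, which held 116 CPM of Gabra2 and 59.1 of Gabra3. Without it, the log2 fold change of Gabrb2 in males was −0.36 (adjusted p = 0.527). The study's methods say that a vehicle-treated male VTA sample with low RNA quality was excluded before sequencing, which left 119 libraries. They also say that an outlying male VTA sample was removed later, without naming it. All 119 libraries were used here, with 5 in the male vehicle group. The outlying sample may therefore be among the male VTA libraries tested.

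Over both sexes of a region, 0 members were called and 0% of all genes were called in each of the 5 regions, with 0.00596% of all genes at an adjusted p under 0.05 at any size in the NAc. In the tests of the difference between the sexes, 0 members were called, with 0% of all genes called in the PFC, DMS, NAc and VTA and 0.0059% in the Amy. The lowest adjusted p of a member in these tests was 0.26. By DESeq2, 0 members were called in any of these 10 tests. Over both sexes of the NAc, however, DESeq2 gave an adjusted p to only 1579 genes. Gabrg1 got none there and so could not be called.

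Males and females differed in 2 members at an adjusted p under 0.05, with treatment as a covariate, though under the size a call needed. Gabra5 was higher in males in the DMS, with means of 28.5 ± 3.34 against 23.8 ± 2.87 CPM (SD, n = 12 each), a log2 fold change of 0.27 ± 0.07 (SE) and an adjusted p of 0.0129. In the DMS 10.9% of all genes had an adjusted p under 0.05 and 2.64% were called. In the PFC Gabra5 was at 83.2 ± 4.85 against 76.1 ± 4.39 CPM (0.13 ± 0.03, adjusted p = 0.0277), where 1.77% of all genes had an adjusted p under 0.05 and 0.237% were called. In the NAc (0.15 ± 0.07, adjusted p = 0.242) and the Amy (0.16 ± 0.07, adjusted p = 0.746) its estimate was also higher in males, and without FTL_344 and FTL_356 that of the Amy was 0.19. In the VTA it was 0.02 ± 0.14.

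Gabrg1 was higher in males in the DMS, at 26.8 ± 5.14 against 20.6 ± 2.35 CPM, and 7 of 12 male libraries lay above all female ones (log2 fold change 0.39 ± 0.09, adjusted p = 0.00859). Without FTL_285 and FTL_301, which held the highest Gabra3 (48.6 and 42.5 CPM) and the lowest Gabrd (147 and 142) of the DMS, it was 0.34 ± 0.07, and that of Gabra5 was 0.27 ± 0.06. In the other regions the estimate of Gabrg1 ran from −0.04 in the PFC to 0.06 in the NAc. Gabra4 had an unadjusted p of 0.0165 in the DMS, where it was lower in males (−0.13 ± 0.05, adjusted p = 0.0936, or 0.0253 without FTL_285 and FTL_301), and of 0.0267 in the PFC, where it was higher (0.09 ± 0.04, adjusted p = 0.236). All 8 medium spiny neuron markers had lower estimates in male DMS, 3 of them at an adjusted p under 0.05, and their summed CPM was 5639 to 8962 in male and 6963 to 9485 in female libraries. Whether this took part in the sex differences of the DMS was not tested. Over all genes, 2.17% had an adjusted p under 0.05 and 0.25% were called between the sexes in the NAc, 0.0177% and 0.0118% in the Amy, and 0.166% and 0.113% in the VTA. The Amy shares include FTL_344 and FTL_356, which went against their labelled sex. With them, 0 of 5 Xist and Y-linked genes had an adjusted p under 0.05 there. Without these libraries, 9 genes were called higher and 5 lower in males in the Amy, against 0 and 2 with them. In the female DMS comparison of THC with vehicle, 0.019% of all genes had an adjusted p under 0.05.

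For THC, no other gene of GABA signaling on the lists was called. The 11 other GABA-A subunit genes had 60 tested pairs over the 10 comparisons, the 2 GABA-B receptor genes 20, the 8 genes of GABA synthesis, release, uptake and breakdown 80, the 14 genes of receptor clustering and trafficking 140, and the 2 chloride transporter genes 20. In each of these lists 0 pairs were called, where only 0.167% of the pairs over all genes were called. The pairs at an unadjusted p under 0.05 numbered 9, 2, 10, 14 and 2, where 8.15% of the pairs over all genes reached that p. Between the sexes, Gabrq, which encodes the theta subunit, was called higher in male DMS at 1.44 ± 0.976 against 0.721 ± 0.412 CPM (log2 fold change 0.99 ± 0.31, adjusted p = 0.0368). Its level there was low and uneven, with a median of 0.755 CPM and a highest value of 3.89 over the 24 DMS libraries. No value without FTL_285 and FTL_301 is given for it.

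Between regions, the largest differences in these lists were in genes that were higher in the Amy or the VTA. Gabre, which encodes the epsilon subunit, was 0.193 ± 0.135 CPM in the PFC and 11.8 ± 2.47 in the Amy (log2 fold change −5.91). Gabrq was 1.08 ± 0.820 in the DMS and 25.8 ± 4.96 in the Amy (−4.59). Both lie on the X chromosome on either side of Gabra3. Slc6a11, which encodes a glial GABA transporter, was 57.7 ± 8.13 CPM in the DMS and 831 ± 77.5 in the VTA (−3.85). Gabrr1, a rho subunit gene, was at most 0.459 CPM on average in any region (−3.38 for PFC against VTA). Hap1, whose product takes part in receptor trafficking, was 108.3 ± 12.3 in the PFC and 980.3 ± 151 in the Amy (−3.18).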

How the data were processed

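The authors trimmed reads with cutadapt 2.9, aligned them to mm10 with STAR 2.7.3a and estimated expression with RSEM 1.3.1, and deposited expected counts per gene in 2 tables, one for PFC and DMS and one for NAc, Amy and VTA. The annotation and strand setting of the counting are not given in the sources used here. Between 2.80% and 6.91% of the values of a library were not whole, and all were rounded to whole counts. Library totals ranged from 3090998 to 77042133 (median 22092612).

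Groups followed the labels. Genes were filtered with filterByExpr, scaled by TMM and tested with edgeR 4.0.16 (quasi-likelihood, robust) in R 4.3.3 across all genes that passed, with Benjamini-Hochberg adjustment. A call needed an adjusted p under 0.05 with a log2 fold change of 0.4 or more either way. Levels are CPM over all libraries, and correlations used log2 CPM with a prior count of 2. DESeq2 1.42.0, its size factors, no filter, the total count as a covariate, all groups of a region in 1 fit and leaving out libraries were alternatives. The scripts were tested on simulated data. Python 3.11.15 read the annotation (53292 of 55291 symbols matched GENCODE M21).

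The 8 genes and the lists were chosen with earlier results of these data known. Outside them, genes were named if called for treatment, sex or their interaction, or if among the 5 largest differences between regions, and for each member the 3 genes with the most similar profile were taken, of which 2 in all are not reported here. Labels do not say which libraries share a mouse. No pair of libraries in a group agreed within sampling noise.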

Additional observations from a re-analysis of the deposited data

Results flagged for a closer look

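In 22 of the 160 sets of gene and group, the highest or lowest library stood apart from the rest of its group by Dixon's criterion, which chance meets in about 1 in 20 sets. All values here are CPM.

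In the Amy, FTL_338 of a vehicle-treated female was lowest in both beta genes, with 137 of Gabrb1 and 22.9 of Gabrb2. FTL_352 of a THC-treated male was highest in Gabra4 (94.3) and Gabrd (46.7). The libraries that went against their labelled sex also appeared, FTL_344 as the highest of its group in Gabra2 (295.04) and FTL_356 as the lowest in Gabrg1 (60.5). FTL_346 of a vehicle-treated male was highest in Gabrd (31.3).

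In the VTA, FTL_371 of a vehicle-treated male, the library with the lowest total count, was highest in Gabra2 (116) and Gabra5 (40.3) and lowest in Gabra3 (59.1). FTL_376 of a THC-treated male was highest in Gabra2 (86.7). Among THC-treated females, FTL_363 was lowest in Gabra4 (15.96) and FTL_365 was highest in Gabrd (1.64).

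In the DMS, FTL_285 of a vehicle-treated female was highest in Gabra3 (48.6) and lowest in Gabrd (147), and FTL_296 of a THC-treated female was lowest in Gabra3 (25.4). In the PFC, FTL_264 of a vehicle-treated female was lowest in Gabra3 (195), FTL_268 of a THC-treated female was highest in Gabrg1 (31.4), FTL_272 of the same group was lowest in Gabrd (39.3), and FTL_282 of a THC-treated male was highest in Gabra5 (91.1). In the NAc, FTL_325 of a vehicle-treated male was highest in Gabrb2 (159) and FTL_328 of a THC-treated male was highest in Gabra5 (48.2).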

How the results depend on the processing

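The counts of members called stayed within 1.5 times the reported count under every alternative run but 1, since DESeq2 called 1 member, Gabrd, in the Amy of females (log2 fold change 0.54, adjusted p = 0.0145). Of the log2 fold changes, 156 values under alternatives kept their direction and stayed on the same side of a call, which needs both the p and the size. By the adjusted p alone, Gabra4 in the Amy of females rose to 0.05 or more in 5 of 12 runs that left out a library and 2 of 5 other settings, Gabra3 in the male NAc fell to 0.0361 by DESeq2, and Gabra4 between the sexes of the DMS fell to 0.0253 without FTL_285 and FTL_301. The exception in direction was Gabrb2 in NAc against Amy, which turned from 0.025 to −0.026 without FTL_338. The runs without FTL_338, and those without FTL_285 and FTL_301, were chosen after seeing the data. Over all genes, the calls in the Amy of females depended on the setting. There were 186 higher and 81 lower in the reported test, against 544 in either direction by DESeq2, 126 with 4 groups in 1 fit and 72 with the total count as a covariate, and as few as 56 with 1 library left out. The count fell by over 1.5 times without FTL_333 (129), FTL_335 (60), FTL_339 (58), FTL_340 (74), FTL_342 (56) or FTL_344 (159). The adjusted p of Gabra4 there ran from 0.00042 (DESeq2) to 0.0812. No paired analysis was possible because nothing in the labels ties libraries to a mouse. Depth limits Gabrd in the VTA, where its lowest count was 3.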
